A study of Mus musculus with 14 samples.

Results

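The insulin and insulin-like growth factor (IGF) pathway is represented here by 6 genes: the secreted IGF-binding proteins *Igfbp7* and *Igfbp4*, the receptors *Igf1r*, *Igf2r* and *Insr*, and the adaptor *Irs2*. The genes were chosen by name, and the choice used measured values, since *Igfbp7* was taken for its high level in WT cells and its lower level in HDAC1cKO-HDAC2HET cells. All 6 genes had a value in every library, among 43950 genes with values in the day 3 experiment and 33482 in the restimulated experiment. Where a library listed no row by the gene's name, an assembled locus was used. It had to share at least 0.8 of the joint span with the gene or with 1 of its annotated transcripts. The smallest share so taken for any of the 6 genes was 0.9325, for *Irs2*. No gene of the 6 fell outside that limit.

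IGF1 and IGF2 act through IGF1R, and insulin acts mainly through INSR. Both receptors are tyrosine kinases that pass their signal through adaptors of the IRS family to PI3K, AKT and mTOR, and AKT in turn keeps FOXO transcription factors out of the nucleus. IGFBPs are secreted proteins that hold IGFs in the extracellular space and control their access to the receptor. IGF2R carries no kinase: it takes up IGF2 for degradation and is also the cation-independent mannose 6-phosphate receptor, which sorts lysosomal enzymes.

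RNA-Seq was done on activated CD4+ T cells of C57BL/6 mice in 2 experiments. The samples are labelled as spleen, and the study's methods describe a pool of spleen and lymph node cells as the starting material. In the day 3 experiment, 4 WT samples were compared with 4 samples from HDAC1f/f HDAC2f/+ x CD4cre mice, called HDAC1cKO-HDAC2HET, whose T cells lose both *Hdac1* alleles and retain an intact *Hdac2* allele beside a deleted one. Sorted naive cells had been kept for 3 days with anti-CD3, anti-CD28 and recombinant IL-2, without cytokines that direct a helper lineage (Th0). In the restimulated experiment, 3 WT samples were compared with 3 samples from HDAC1f/f x CD4cre mice, called HDAC1cKO, grown in the same way for 3 days and then exposed to anti-CD3 again for 12 hours. The study's RNA-Seq methods describe cells harvested after 3 days, with viable cells sorted before RNA was made. The study used mice of both sexes between 6 and 12 weeks of age with littermate controls. For the restimulated cells the paper refers to an earlier study, so the sort, culture details, ages and littermates may differ there. *Cd4*-Cre is active in every T cell that has passed through the CD4+CD8+ thymocyte stage, so deletion precedes culture and is not limited to CD4+ cells. The day 3 samples came from separate cell batches prepared on the same day. For the restimulated samples no source states separate animals, so the p-values measure the spread between these samples.

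The values are FPKM, fragment numbers scaled to transcript length and to the size of the library, so levels of different genes can be compared. The depth estimated from the Cufflinks bounds was 25400000 to 59300000 fragments per library in the day 3 experiment and 28700000 to 48500000 in the restimulated experiment. *Hdac1* stood at 78.1 ± 1.44 FPKM (SD, n = 4) in WT and 8.30 ± 1.89 (n = 4) in HDAC1cKO-HDAC2HET cells, and at 75.6 ± 4.78 (n = 3) in WT and 10.1 ± 1.82 (n = 3) in HDAC1cKO cells. *Hdac2* was 59.0 ± 1.04 against 35.4 ± 1.36 FPKM in the day 3 experiment and 72.4 ± 8.65 against 80.4 ± 6.91 FPKM in the restimulated experiment. All 9 T cell markers, *Cd4* among them, were detected above 1 FPKM, with summed levels of 1601 to 2088 FPKM over all libraries. At day 3, 7 of the 9 were lower and 2 higher at an adjusted p of 0.05 (limma), beside 27.6% and 24.2% of all genes tested. Their log2 differences ran from -0.65 to 0.92, and 0 of the 9 passed after restimulation. *Igfbp7* is also well known from endothelium and stroma, and of 8 endothelial markers with values only *Pecam1*, which T cells use too, exceeded 1 FPKM in any library, while *Cdh5* reached at most 0.00541 FPKM. *Pecam1* fell from 19.0 to 7.75 FPKM in HDAC1cKO-HDAC2HET cells (log2 difference -1.28, limma adjusted p = 0.000101). Fibroblast and stromal markers summed to at most 0.941 FPKM in every library. The CD8 marker *Cd8b1* rose from 4.71 to 12.8 FPKM in HDAC1cKO-HDAC2HET cells, and the other CD8 marker was also called higher. The B cell marker *Cd79b* rose from 0.293 to 2.76 FPKM, while *Cd79a*, at 0.381 against 0.504 FPKM, was not called (limma adjusted p = 0.392). Of the myeloid markers, *Cd68* was at 3.88 to 5.60 FPKM in the restimulated libraries and had no value at day 3, where *Fcgr3* reached 1.28 FPKM. The part of these markers in the results was not tested. In bulk RNA, fewer cells that express a gene and less RNA per cell cannot be told apart.

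Promoter sequence is shown for the 3 genes whose groups did not overlap in the day 3 experiment, to set side by side the control regions of genes that were lower together. The sequences are the 250 bases before the annotated start, 5′ to 3′ on the gene's strand, from RefSeq on GRCm38.p6, and capitals mark each match to the GC box GGGCGG or to its reverse complement. The *Igfbp7* window lies at chr5:77408046-77408295 on the minus strand, that of *Igfbp4* at chr11:99040994-99041243 on the plus strand, and that of *Igf1r* at chr7:67952007-67952256 on the plus strand. The RefSeq starts can differ from those of the gene coordinates given below. For *Igf1r* these begin at chr7:67952827, so its window does not adjoin them.
Igfbp7: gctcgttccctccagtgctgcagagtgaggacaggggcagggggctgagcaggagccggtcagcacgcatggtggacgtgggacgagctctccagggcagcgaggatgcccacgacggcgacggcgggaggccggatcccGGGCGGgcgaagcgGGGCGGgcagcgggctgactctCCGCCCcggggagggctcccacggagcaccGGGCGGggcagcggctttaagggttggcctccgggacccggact
Igfbp4: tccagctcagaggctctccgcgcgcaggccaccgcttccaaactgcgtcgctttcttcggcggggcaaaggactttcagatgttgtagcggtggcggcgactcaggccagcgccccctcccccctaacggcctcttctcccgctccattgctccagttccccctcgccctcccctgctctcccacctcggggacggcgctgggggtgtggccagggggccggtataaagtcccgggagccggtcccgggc
Igf1r: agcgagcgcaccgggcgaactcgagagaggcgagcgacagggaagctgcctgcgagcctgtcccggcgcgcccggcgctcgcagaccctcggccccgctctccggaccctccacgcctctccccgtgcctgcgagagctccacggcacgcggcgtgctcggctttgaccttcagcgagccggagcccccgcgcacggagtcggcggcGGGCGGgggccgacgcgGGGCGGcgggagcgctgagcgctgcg

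The *Igfbp7* window holds 4 GC boxes and the *Igf1r* window holds 2, whereas the *Igfbp4* window holds none. *Igf2r* has 3 and *Irs2* has 1. *Insr* was not among the promoters used. Both strands were searched, and 32.7% of 32851 mouse promoter windows of the same length hold at least 1 GC box. TATAAA or its reverse complement was found once, in *Igfbp4*, and 12.4% of all windows hold it. The FOXO motif GTAAACA, also searched on both strands, was in none of the 5 windows and is in 3.2% of all windows. All 5 windows are rich in CpG, from 22 CG dinucleotides in *Igfbp4* to 42 in *Igf1r*, where the median over all windows is 6. These matches are descriptions of the letters in the windows and are not binding sites.

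*Igfbp7* (ENSMUSG00000036256; GRCm38 chr5:77349240-77408041, minus strand) encodes a secreted protein that binds insulin and, with low affinity, IGFs. It was the most abundant of the 6 transcripts in WT cells of both experiments. At day 3 the WT libraries gave 160.7, 159.4, 172.0 and 165.9 FPKM, above 96.6% of the genes tested. HDAC1cKO-HDAC2HET libraries gave 34.8, 34.7, 39.5 and 36.7 FPKM. All 4 mutant values lay far below the WT values, with a ratio of means of 0.221 and a log2 difference of -2.17 (SE 0.05, 4 against 4 samples). Because the gene was chosen on this contrast, no test is given for it.

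In the restimulated experiment, which the choice of *Igfbp7* did not use, the 3 WT libraries gave 121.7, 134.6 and 108.7 FPKM and the 3 HDAC1cKO libraries 75.0, 84.4 and 66.7 FPKM. Every HDAC1cKO library was below every WT library, and the ratio of means was 0.619. The log2 difference was -0.69 (SE 0.12, 95% interval -0.99 to -0.40). It did not pass the threshold after adjustment over 14046 genes (limma, unadjusted p = 0.0012, adjusted p = 0.148), and the exact 2-sided permutation test gave 0.1, the smallest value that 3 against 3 samples allow. The log2 differences of -2.17 and -0.69 come from experiments that differ in genotype, restimulation and mice, which cannot be told apart, and the difference between them was not tested.

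**Figure D1:**
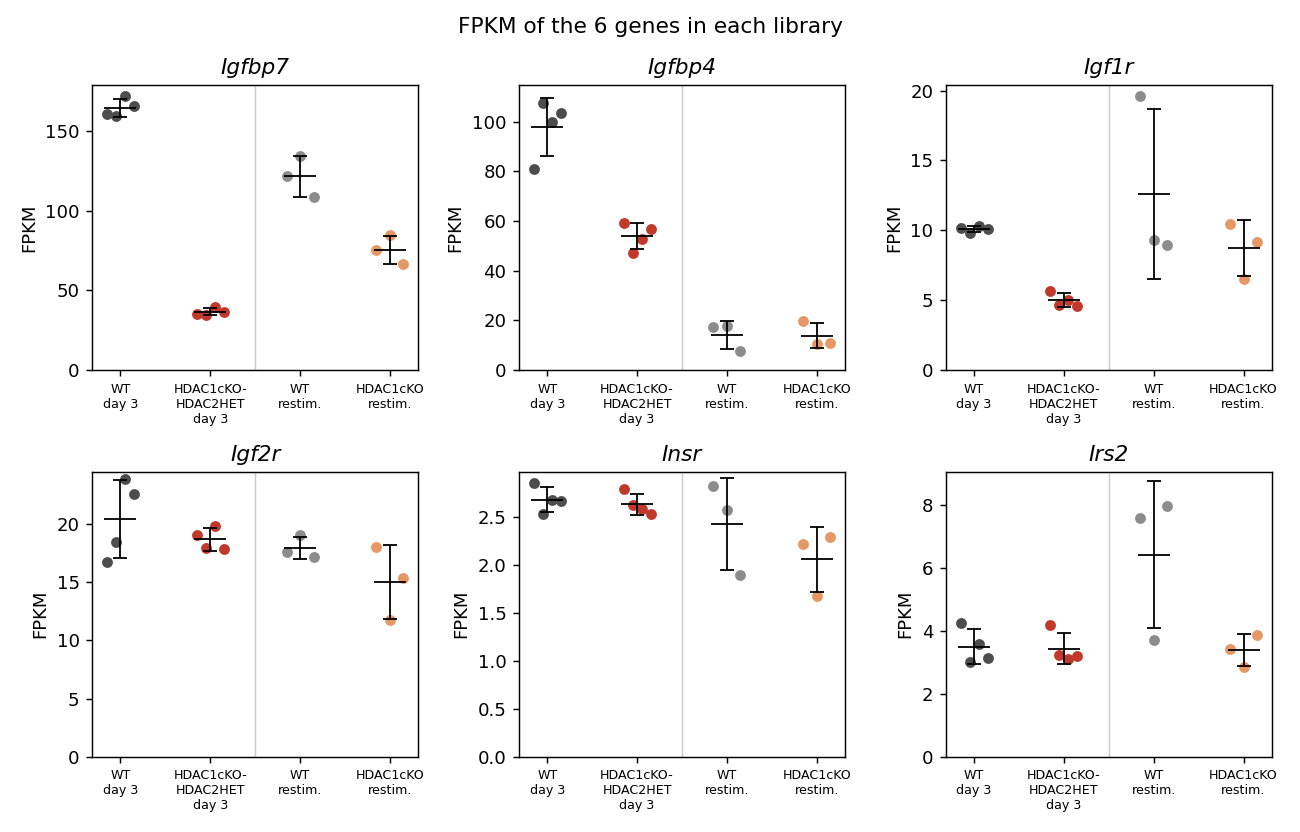
FPKM (linear axis from 0) of each of the 6 genes in each library, as points, with the group mean as a horizontal bar and the SD as whiskers (n = 4 per group at day 3, n = 3 per group after restimulation). *Igfbp7*, *Igfbp4* and *Igf1r* were separated between the groups at day 3, and only *Igfbp7* was separated after restimulation, with WT values of 108.7 to 134.6 and HDAC1cKO values of 66.7 to 84.4 FPKM.

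*Igfbp4* (ENSMUSG00000017493; chr11:99041244-99054392, plus strand) encodes an IGF-binding protein that is cleaved by the PAPP-A protease. At day 3 its WT values were 80.9, 107.4, 99.9 and 103.5 FPKM, and its HDAC1cKO-HDAC2HET values were 59.2, 47.0, 52.6 and 56.6 FPKM. The groups did not overlap, the ratio of means was 0.550, and the log2 difference was -0.86 (SE 0.11). After restimulation the WT libraries stood at 17.3, 17.5 and 7.62 FPKM and the HDAC1cKO libraries at 19.7, 10.6 and 11.04 FPKM. These groups overlapped, with means of 14.2 ± 5.65 and 13.8 ± 5.12 FPKM (SD, n = 3 each). The 95% interval of the log2 difference ran from -0.98 to 0.98 (limma adjusted p = 0.999), so a change as large as that at day 3 lies within it. The WT level itself was 97.9 ± 11.7 FPKM at day 3 and 14.2 ± 5.65 FPKM in the restimulated experiment, and culture, library preparation and mice cannot be told apart in that comparison.

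The balance of the 2 binding proteins can be read within a library, where scaling cancels. *Igfbp7* exceeded *Igfbp4* in every WT library at day 3, by a ratio of 1.49 to 1.99, and was below it in every HDAC1cKO-HDAC2HET library, at 0.588 to 0.752. These day 3 ratios hold the values on which *Igfbp7* was chosen, so nothing further is read from them. After restimulation the ratio was 7.03 to 14.3 in WT and 3.81 to 7.95 in HDAC1cKO libraries, which overlap.

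*Igf1r* (ENSMUSG00000005533; chr7:67952827-68233668, plus strand), the IGF1 receptor, was at 10.2, 9.84, 10.3 and 10.1 FPKM in WT and at 5.68, 4.67, 4.99 and 4.599 FPKM in HDAC1cKO-HDAC2HET cells at day 3. The WT libraries differed by little from each other, and all mutant libraries were below them, with a ratio of 0.494 and a log2 difference of -1.01 (SE 0.07). In the restimulated experiment the WT values were 19.6, 9.30 and 8.93 FPKM and the HDAC1cKO values 10.5, 6.53 and 9.13 FPKM. WT replicate 1 stood well above the others, and the remaining values overlapped. The log2 difference was -0.46 (SE 0.35, 95% interval -1.31 to 0.39, limma adjusted p = 0.592) and -0.09 without that library. The assembled locus ended at unlike positions in the 6 restimulated libraries, with shares of the joint span from 0.9757 to 0.9981, which limits the comparison.

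*Insr* (ENSMUSG00000005534; chr8:3122061-3279617, minus strand), the insulin receptor, had 1.67 to 2.85 FPKM over all 14 libraries. In the libraries the *Insr* locus was chr8:3150922-3279617, which is shorter than the annotated gene. Its values at day 3 were 2.85, 2.53, 2.68 and 2.66 FPKM in WT and 2.78, 2.62, 2.58 and 2.53 FPKM in HDAC1cKO-HDAC2HET cells. They overlapped, and the log2 difference of -0.03 had a 95% interval of -0.17 to 0.12. After restimulation WT libraries had 2.82, 2.57 and 1.89 FPKM and HDAC1cKO libraries 2.21, 1.67 and 2.28 FPKM, a log2 difference of -0.22 (95% interval -0.75 to 0.31, limma adjusted p = 0.663). The ratio of *Igf1r* to *Insr* within a library was 3.57 to 3.90 in WT and 1.78 to 2.04 in HDAC1cKO-HDAC2HET cells at day 3. The groups did not overlap in this ratio at day 3. With *Insr* nearly level, that follows from *Igf1r*, and nothing further is read from it. After restimulation it was 3.62 to 6.97 in WT and 3.91 to 4.73 in HDAC1cKO libraries.

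*Igf2r* (ENSMUSG00000023830; chr17:12682406-12769664, minus strand), which lowers IGF2 by uptake, was the most abundant of the 3 receptors in every group. At day 3 the WT values were 16.8, 18.5, 23.9 and 22.6 FPKM and the HDAC1cKO-HDAC2HET values 19.1, 17.9, 19.9 and 17.9 FPKM. The mutant values lay inside the WT range, with a log2 difference of -0.11 (95% interval -0.38 to 0.15). In the restimulated experiment WT libraries had 17.6, 19.1 and 17.2 FPKM and HDAC1cKO libraries 18.03, 11.7 and 15.4 FPKM. These overlapped as well (log2 difference -0.27, 95% interval -0.68 to 0.13, limma adjusted p = 0.494).

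*Irs2* (ENSMUSG00000038894; chr8:10984681-11008458, minus strand) encodes the adaptor that links both receptor kinases to PI3K. WT libraries at day 3 had 4.26, 3.00, 3.58 and 3.14 FPKM and HDAC1cKO-HDAC2HET libraries 4.17, 3.25, 3.11 and 3.21 FPKM. The groups overlapped, with a log2 difference of -0.02 (95% interval -0.34 to 0.29). After restimulation the WT values were 7.58, 3.73 and 7.96 FPKM and the HDAC1cKO values 3.43, 2.85 and 3.88 FPKM. WT replicate 2 lay among the HDAC1cKO libraries, and the other WT libraries lay above them. The log2 difference was -0.84 (SE 0.32, 95% interval -1.61 to -0.06) and did not pass after adjustment (limma, unadjusted p = 0.0379, adjusted p = 0.327; exact permutation test, p = 0.2). *Irs2* moved with the sex-linked transcripts of this experiment. *Xist*, made from the inactive X chromosome, was at 42.9 and 33.2 FPKM in WT replicates 1 and 3 and at most 0.0435 FPKM in WT replicate 2 and the HDAC1cKO libraries, where the Y-linked *Ddx3y* stood at 16.98 to 19.98 FPKM. WT replicate 3 held both transcripts, with *Ddx3y* at 1.93 FPKM. With *Xist* status as a covariate, which rests on 1 WT library without *Xist*, the *Irs2* difference was -0.14 (limma adjusted p = 0.84) and that of *Igfbp7* was -0.84 (adjusted p = 0.194). In the same fit *Igf1r* was at -0.12 (adjusted p = 0.95), *Igfbp4* at -0.40 (0.832), *Igf2r* at -0.36 (0.662) and *Insr* at -0.32 (0.776). Genotype and sex are nearly confounded in these 6 libraries, since all HDAC1cKO libraries lacked *Xist*. All 8 day 3 libraries held *Xist*, so sex did not vary there. The *Irs2* loci also differed in their ends between the restimulated libraries.

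**Figure D2:**
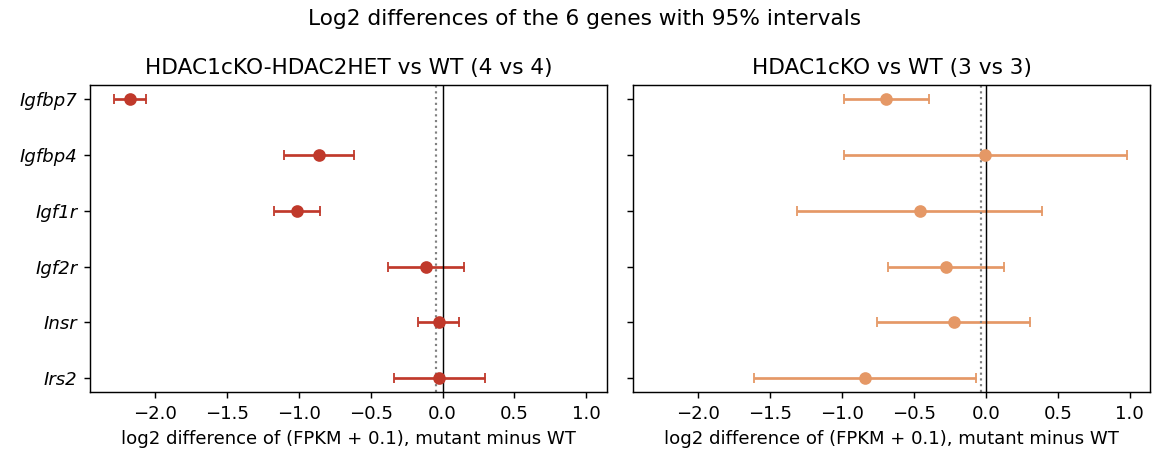
Log2 difference of FPKM + 0.1 (mutant minus WT, horizontal axis) for the 6 genes in each experiment, with points for the limma estimate and whiskers for its 95% interval; the dotted line is the median over all genes tested. At day 3 the differences of *Igfbp7*, *Igf1r* and *Igfbp4* were -2.17, -1.01 and -0.86, and after restimulation the intervals of *Igfbp7* and *Irs2* did not include 0.

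Of the 6 genes, 3 had lower, non-overlapping values in HDAC1cKO-HDAC2HET cells, where 27% of all 15165 genes tested did so in that direction and 23.4% in the other. Since the choice of genes used this contrast, nothing is read from that count. In the restimulated experiment 0 of the 6 genes passed an adjusted p of 0.05 in limma, against 0.0641% of the 14046 genes tested in the lower and 0.0285% in the higher direction (0.0641% and 0.0142% with a fold change of at least 2). At an unadjusted p of 0.05 in limma, 2 of the 6 passed, both lower. Of the 14046 genes tested, 1998 did so in either direction, so nothing is read from that count. Only *Igfbp7* of the 6 had non-overlapping values there, a pattern that 12.3% of all genes showed in the lower and 9.92% in the higher direction. The median log2 difference over all genes was -0.05 at day 3 and -0.03 after restimulation, so a general shift was small.

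The order of levels was *Igfbp7*, *Igfbp4*, *Igf2r*, *Igf1r*, *Irs2* and *Insr* in WT cells at day 3, with no overlap between neighbours in that order. In HDAC1cKO-HDAC2HET cells *Igfbp4* (53.8 ± 5.32 FPKM) came before *Igfbp7* (36.4 ± 2.24 FPKM), and the order was otherwise the same. In restimulated WT cells *Igfbp7* was again first, followed by *Igf2r* (17.96 ± 0.978), *Igfbp4* (14.2 ± 5.65) and *Igf1r* (12.6 ± 6.09), and the last 3 overlapped. *Irs2* at 6.42 ± 2.34 and *Insr* at 2.42 ± 0.482 FPKM were lowest. In HDAC1cKO cells the order was the same: *Igf2r* and *Igfbp4* overlapped, and *Igf1r* (6.53 to 10.5 FPKM) lay just below the lowest *Igfbp4* value of 10.6 FPKM.

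Neighbouring genes were read for each of the 6 loci. *Igfbp7* ends within the convergent gene *Polr2b*, a subunit gene of RNA polymerase II, and the nearest tested coding gene on the other side was *Cenpc1*, a centromere protein gene 8603982 bases away. *Polr2b* was at 39.5 ± 1.51 FPKM in WT and 41.0 ± 1.46 FPKM in HDAC1cKO-HDAC2HET cells (log2 difference 0.05, limma adjusted p = 0.30). After restimulation *Polr2b* was at 42.1 ± 2.29 and 39.3 ± 0.583 FPKM, lower in HDAC1cKO cells without overlap (-0.10, adjusted p = 0.555). *Cenpc1* fell from 17.4 to 12.3 FPKM at day 3 (-0.50, adjusted p = 0.00013), and its log2 difference after restimulation was -0.08 (adjusted p = 0.703). The study's methods name a stranded library kit, but whether strand was used in counting is not given in the sources used here. Reads from the shared end, chr5:77349240-77349324, therefore cannot be told apart. Next to *Igfbp4*, the topoisomerase gene *Top2a* differed by less than the spread (196.0 against 197.6 FPKM, limma adjusted p = 0.851), while *Tns4*, 11285 bases away, fell from 0.403 to 0.0426 FPKM (log2 difference -1.80, adjusted p = 0.00028). Next to *Igf1r*, *Pgpep1l* lies 2941 bases beyond its end on the opposite strand. *Pgpep1l* fell from 1.23 ± 0.12 to 0.267 ± 0.18 FPKM at day 3 (log2 difference -1.98, SE 0.33, limma adjusted p = 0.0014). After restimulation its values were 0.373 ± 0.103 in WT and 0.0963 ± 0.0605 FPKM in HDAC1cKO cells, without overlap (adjusted p = 0.244). *Ttc23*, on the other side of *Igf1r* at 189914 bases, had log2 differences of -0.03 and -0.02 in the 2 experiments (adjusted p = 0.882 and 0.991). For *Igf2r* the neighbours were *Map3k4*, which rose from 9.30 to 11.2 FPKM at day 3 (log2 difference 0.27, adjusted p = 0.0016), and *Pnldc1* (-0.26, adjusted p = 0.599). *Pex11g*, the only tested neighbour of *Insr*, fell from 1.61 to 0.981 FPKM (log2 difference -0.65, adjusted p = 0.0212). *Abhd13* and *Rab20* beside *Irs2* had log2 differences of -0.06 and -0.23 (adjusted p = 0.289 and 0.218). The antisense RNA *Airn*, which silences *Igf2r* on the paternal allele outside the brain, did not exceed 0.9747 FPKM in any library, and its log2 differences were 0.55 at day 3 and 0.05 after restimulation (adjusted p = 0.106 and 0.936).

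The 5 protein-coding genes whose log2 values followed *Igfbp7* most closely over the 14 libraries, among 9013 genes compared, were *Tmem38b* (Pearson r = 0.99), *Dis3l2* (0.989), *Rad50* (0.987), *Arhgef3* (0.985) and *Sclt1* (0.984). The 14 libraries share 4 groups, so these coefficients mainly describe group means. Since the genes were picked by r over these same libraries, a likeness of their group ratios follows from the choice and nothing is read from it. *Tmem38b*, which encodes an endoplasmic reticulum cation channel, was at 30.5, 5.80, 23.8 and 15.01 FPKM in WT day 3, HDAC1cKO-HDAC2HET, restimulated WT and HDAC1cKO cells. Within each experiment, the ratio of the mutant to the WT mean was 0.190 in HDAC1cKO-HDAC2HET and 0.631 in HDAC1cKO cells for *Tmem38b*, beside 0.221 and 0.619 for *Igfbp7*. For *Rad50*, a DNA repair gene, the same ratios were 0.598 and 0.846. For the other genes of the pathway the closest were *Helb*, *Supt16* and *Hnrnpa3* for *Igfbp4* (r = 0.978 to 0.969), *Traf6*, *Purb* and *Snx13* for *Igf1r* (0.986 to 0.976), *Mapk14*, *Map7* and *Trim32* for *Igf2r* (0.847 to 0.817), *Blm*, *Uhrf1bp1l* and *Dicer1* for *Insr* (0.935 to 0.928), and *Zfyve26*, *Tab2* and *Chic2* for *Irs2* (0.902 to 0.859). Among the 6 genes themselves r was highest between *Igfbp7* and *Igf1r* (0.78) and lowest between *Igfbp4* and *Irs2* (-0.47).

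**Figure D3:**
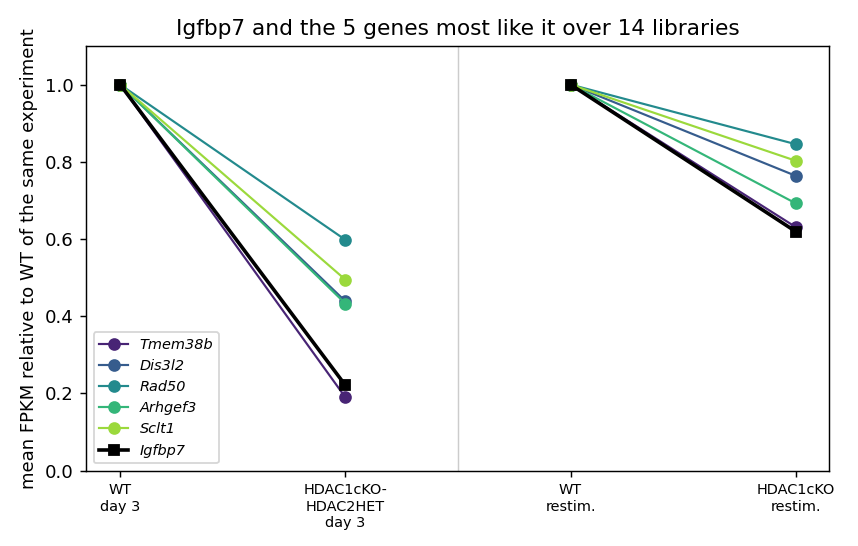
Group mean FPKM of *Igfbp7* (black squares) and of the 5 genes most like it (coloured circles), each divided by its own mean in the WT cells of the same experiment, for the 4 groups; lines join the 2 groups of an experiment. *Igfbp7* stood at 0.221 and the others at 0.190 to 0.598 in HDAC1cKO-HDAC2HET cells, and at 0.619 and 0.631 to 0.846 in HDAC1cKO cells. The 5 genes were picked for their likeness to *Igfbp7* over these libraries, so a shared direction follows from the choice.

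The rest of the pathway was read from 93 genes in 10 lists, of which 64 were tested in each experiment. In HDAC1cKO-HDAC2HET cells 26 were higher and 22 lower at an adjusted p of 0.05 (limma), and 16 did not pass. Over all genes tested the shares were 24.2% higher and 27.6% lower. With a fold change of at least 2, 10 were higher and 6 lower, where 5.58% and 5.56% of all genes were called. In the restimulated experiment 1 of the 64 genes was higher and 0 were lower, and 63 did not pass. Over all genes tested there, 0.0285% were higher and 0.0641% lower. At day 3 the median log2 difference of the 64 genes was 0.05, beside -0.05 over all genes.

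**Figure D4:**
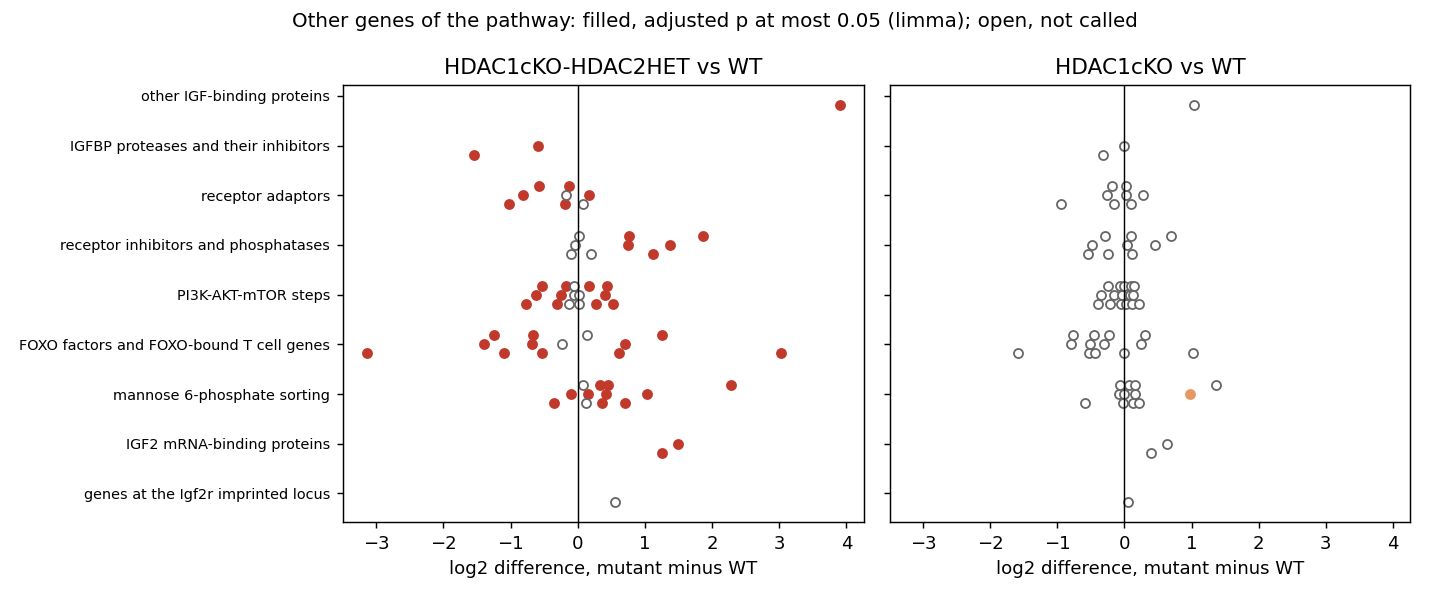
Log2 difference of FPKM + 0.1 (mutant minus WT, horizontal axis) for each tested gene of the pathway lists (rows; points are spread vertically for clarity) in the 2 experiments. Filled points passed an adjusted p of 0.05 in limma and open points did not; at day 3 the 26 points of higher and the 22 of lower genes are filled, and after restimulation only *Vps29* is.

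The ligands themselves were not seen at a level that could be tested. *Igf2* reached at most 0.203 FPKM in any library, *Igf1* at most 0.0869 FPKM in the restimulated libraries, where alone it had a value, and *Ins1* was listed at 0 throughout. Of the other IGF-binding proteins only *Igfbp2* was tested. *Igfbp2* was at 0.104, 0.0312, 0.246 and 0.0624 FPKM in WT and at 2.49, 3.37, 3.02 and 2.62 FPKM in HDAC1cKO-HDAC2HET cells. It thus rose where *Igfbp4* and *Igfbp7* were lower (log2 difference 3.91, SE 0.29, limma adjusted p = 2.44e-05), from a WT level close to the pseudocount of 0.1, which limits the size of the difference. After restimulation *Igfbp2* was 0.128 ± 0.128 in WT and 0.342 ± 0.149 FPKM in HDAC1cKO cells, and the groups overlapped (log2 difference 1.03, adjusted p = 0.401). Of the proteases and inhibitors that act on IGF-binding proteins, 2 of 2 tested genes were lower at day 3, beside 27.6% of all genes tested. *Stc2*, a secreted inhibitor of PAPP-A proteases, fell from 28.2 ± 9.43 to 9.65 ± 3.52 FPKM (log2 difference -1.54, adjusted p = 0.0031), and *Pappa2*, a protease, from 0.149 to 0.0636 FPKM (-0.59, adjusted p = 0.04). The *Pappa2* values overlapped, at 0.0833 to 0.191 FPKM in WT and 0.0522 to 0.0920 FPKM in HDAC1cKO-HDAC2HET cells, and lie near the pseudocount. After restimulation the log2 differences of *Stc2* and *Pappa2* were -0.32 and -0.00 (adjusted p = 0.752 and 0.999).

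Directly below the receptors, 5 of 8 tested adaptors were lower and 1 higher at day 3, and 0 of 8 passed after restimulation. Over all genes tested at day 3, 27.6% were lower and 24.2% higher. *Irs1*, the adaptor closest to *Irs2* in function, did not exceed 0.0257 FPKM in any library, so *Irs2* was the IRS transcript detected. *Grb2*, the adaptor that leads to RAS and the most abundant of the list, rose from 42.0 to 47.3 FPKM (log2 difference 0.17, limma adjusted p = 0.0004). *Gab2* fell from 0.898 to 0.395 FPKM (-1.02, adjusted p = 0.002) and *Sh2b2* from 2.62 to 1.42 FPKM (-0.82, adjusted p = 0.0041). After restimulation the log2 differences were -0.94 for *Sh2b2* (adjusted p = 0.399), 0.28 for *Sh2b1* (adjusted p = 0.396) and 0.03 for *Grb2* (adjusted p = 0.861). Among inhibitors and phosphatases 5 of 9 were higher and 0 lower at day 3, beside 24.2% and 27.6% of all genes tested. The median log2 difference of the 9 was 0.76. *Socs3*, a feedback inhibitor of cytokine and insulin signalling, rose from 5.61 ± 0.305 to 20.9 ± 2.61 FPKM (log2 difference 1.87, adjusted p = 4.22e-06). *Enpp1*, which hinders insulin receptor activation, rose from 1.11 to 3.06 FPKM (1.38, adjusted p = 4.88e-05), and *Ptpn1*, the phosphatase of the insulin receptor, was 76.6 ± 3.46 against 77.9 ± 2.06 FPKM (0.02, adjusted p = 0.641). After restimulation 0 of these 9 genes passed, with the largest differences in *Ptprf* (0.70, adjusted p = 0.396) and *Grb10* (-0.54, adjusted p = 0.527), and *Ptpn1* was at 0.03 (adjusted p = 0.889).

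Of the PI3K, AKT and mTOR steps, 5 of 16 were higher, 6 lower and none by 2-fold at day 3. Over all genes tested 24.2% were higher and 27.6% lower, so nothing is read from these counts. *Akt1* rose from 95.03 to 126.7 FPKM (log2 difference 0.41, limma adjusted p = 0.00022). *Mlst8*, a subunit of both mTOR complexes, fell from 7.00 to 4.08 FPKM (-0.77, adjusted p = 1.07e-05), and *Rictor*, of mTOR complex 2, from 6.29 to 4.05 FPKM (-0.62, adjusted p = 7.9e-05). After restimulation 0 of 16 passed, and *Rictor* (-0.39, adjusted p = 0.381) and *Tsc1* (-0.35, adjusted p = 0.335) differed most, while *Akt1* was at 0.12 (adjusted p = 0.752).

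Of the FOXO factors and genes bound by them in T cells, 7 of 13 were lower and 4 higher at day 3. Over all genes tested 27.6% were lower and 24.2% higher. *Klf2*, a factor of quiescence and egress, fell from 21.0 ± 2.44 to 2.30 ± 0.341 FPKM (log2 difference -3.14, limma adjusted p = 2.11e-06). *Il7r*, the IL-7 receptor, rose from 2.36 ± 0.599 to 19.7 ± 2.29 FPKM (3.03, adjusted p = 6.01e-06), and *Ccr7*, a homing receptor and the most abundant of the list, from 340.7 to 553.2 FPKM (0.71, adjusted p = 0.00048). FOXO1 is known to raise all 3, and the part of FOXO factors in these differences was not tested. *Foxo1* itself was at 9.96 against 10.9 FPKM (0.13, limma adjusted p = 0.0683). *Foxo3* was at 12.7 to 13.7 FPKM in WT and 7.57 to 9.03 FPKM in HDAC1cKO-HDAC2HET libraries. *Foxo4* went the other way, at 4.89 to 5.71 FPKM in WT and 10.3 to 15.6 FPKM in HDAC1cKO-HDAC2HET libraries. *Klf2*, *Il7r* and *Ccr7* also belong to the 7 naive T cell markers, of which 4 were higher, 2 were lower and 1 was not called at day 3. Their summed level, 639 to 718 FPKM in WT and 886 to 1080 FPKM in HDAC1cKO-HDAC2HET cells, consisted to a large part of *Ccr7* itself, whereas *Lef1* fell from 69.6 to 41.0 FPKM (-0.76, adjusted p = 1.61e-05) and *Tcf7* was not called (-0.16, adjusted p = 0.295). The part of the naive markers in these differences was not tested. After restimulation 0 of 13 passed, the median log2 difference was -0.44, and 7 genes were lower and 1 higher without overlap, where 12.3% and 9.92% of all genes tested were. *Klf2* was among the 7 (4.80 against 1.58 FPKM, log2 difference -1.58, adjusted p = 0.149), and the 1 higher gene was *Il7r* (3.62 against 7.08 FPKM, 1.02, adjusted p = 0.249). *Foxo1* was also among the 7 (20.7 against 14.5 FPKM, -0.51, limma adjusted p = 0.186), as was *Foxo3* (-0.44, adjusted p = 0.283). *Foxo4* (0.25, adjusted p = 0.425) and *Ccr7* (0.31, adjusted p = 0.524) overlapped.

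Around *Igf2r* as a sorting receptor, 8 of 12 genes of mannose 6-phosphate sorting were higher and 2 lower at day 3. Over all genes tested 24.2% were higher and 27.6% lower. *Sort1*, the sorting receptor sortilin, rose from 0.591 ± 0.108 to 3.27 ± 0.379 FPKM (log2 difference 2.29, limma adjusted p = 8.51e-06). *Gnptg*, a subunit of the enzyme that makes the mannose 6-phosphate tag, rose from 12.2 to 25.0 FPKM (1.03, adjusted p = 9.57e-06). *M6pr*, the cation-dependent receptor for the same tag, fell from 107.8 to 84.6 FPKM (-0.35, adjusted p = 0.003). *Vps29*, of the retromer complex that returns such receptors to the Golgi, was the only list gene called after restimulation. Its WT values of 56.0 to 61.1 FPKM and HDAC1cKO values of 111.6 to 120.0 FPKM did not overlap (log2 difference 0.97, SE 0.07, adjusted p = 0.0119). The call was lost without HDAC1cKO replicate 3, without a variance trend, with the replicate block and with rows listed by name only. In the same experiment *Sort1* had a log2 difference of 1.36 (adjusted p = 0.348) and *M6pr* of -0.03 (adjusted p = 0.926). At day 3 *Vps29* also rose, from 49.8 to 67.0 FPKM (0.43, adjusted p = 7.97e-05). *Igf2bp3* and *Igf2bp2*, which bind *Igf2* mRNA among others, both rose at day 3, from 3.02 to 8.69 FPKM (1.5, adjusted p = 1.05e-05) and from 0.15 to 0.5 FPKM (1.26, adjusted p = 0.00052). After restimulation their log2 differences were 0.63 (adjusted p = 0.277) and 0.40 (adjusted p = 0.602).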

How the data were processed

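RNA-Seq libraries of 14 samples were used. The study's methods give 50 base single reads, in a section that describes only cells harvested after 3 days. Per the study's methods, TopHat placed the reads on mm10 and Cufflinks built transcripts and gene values, 1 library at a time. The submitters' processing notes instead list STAR 2.5.2b and Subread 1.5.1, which do not make files of this layout. The values deposited by the authors are FPKM per gene with confidence bounds, which already account for library size and gene length and are not counts. Because assembly was done per library, a gene can be named in 1 library and be an unnamed locus in another, and such loci were matched to GENCODE spans on GRCm38 at 0.8 of the joint span. Duplicate rows of a gene with unlike values were left out (10 to 42 per library).

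A separate limma model (3.58.1, R 4.3.3) was used per experiment for log2(FPKM + 0.1), with a variance trend and Benjamini-Hochberg adjustment over genes with a mean of at least 0.1 FPKM. Fold changes on this scale understate those of low genes. Groups were taken from the sample titles. Single genes of the restimulated experiment were also tested with an exact 2-sided permutation test. The 6 genes, the pathway and marker lists, and the tests were chosen with earlier results of these data known. Named list genes were, per list and experiment, the most abundant tested gene and the 2 with the largest log2 difference, and neighbours were the nearest tested coding genes. *Irs1*, *Foxo1*, *Foxo3*, *Foxo4*, *Lef1*, *Tcf7* and the ligands were named outside this rule, after their values had been seen. *Igfbp7* gave 5 most similar genes and the others 3 each, among coding genes of at least 1 FPKM. Depth was estimated from the Cufflinks bounds of low genes, where 85.0% to 90.6% gave whole fragments within 0.05. Alternatives changed the pseudocount, filter, scaling, variance model, weights, covariate, locus matching and each sample in turn. Tables and figures were made with Python 3.11.15, pandas 2.3.3, numpy 2.4.6 and matplotlib 3.10.9. A gene of the lists is not reported here by name, though it remains in the counts and sums.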

Additional observations from a re-analysis of the deposited data

Results flagged for a closer look

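The *Irs2* level of 4.17 FPKM in HDAC1cKO-HDAC2HET replicate 1 stood apart from the other 3 libraries of its group, the nearest of which was at 3.25 FPKM. The gap was 0.87 of the group's whole range, above Dixon's critical value for 4 samples. This was the only such value in 12 groups of 4 samples examined, and chance gives about 1 in 20 groups. WT replicate 1 of the same experiment had the highest *Irs2* value of its group too, at 4.26 FPKM.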

How the results depend on the processing

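At day 3 the direction of *Igfbp7*, *Igfbp4* and *Igf1r* held in every alternative, and the *Igfbp7* log2 difference ran from -2.21 to -2.15 with a sample left out and was -2.25 after quantile normalization. In the HDAC1cKO experiment *Igfbp7* ran from -0.84 to -0.68 over the other settings and from -0.78 to -0.61 with a sample left out, always lower, and passed the threshold only with both experiments in 1 fit (-0.69, limma adjusted p = 0.00134, against 0.0813 to 0.44 elsewhere). That fit takes its variance also from the day 3 libraries on which *Igfbp7* was chosen, and it called 642 genes higher and 714 lower of 12409 (5.17% and 5.75%), against 4 and 9 of 14046, so nothing is read from it. *Igfbp4* there was at -0.00 and turned its sign with median ratio scaling (0.01), quantile normalization (0.05) and array weights (0.03), and ran from -0.40 to 0.20 with a sample left out; it never passed. With a sample left out, *Igf1r* ran from -0.66 to -0.09, *Igf2r* from -0.42 to -0.11, *Insr* from -0.38 to -0.08 and *Irs2* from -1.18 to -0.65, none past the threshold.

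The day 3 counts of pathway genes dropped to 2 higher and 2 lower, and to 0 and 1 by 2-fold, when only rows listed by name in every library were used, since 4293 genes remained to be tested. With a pseudocount of 1 the 2-fold higher count was 6. After restimulation the 1 higher gene, *Vps29*, was not called without a variance trend (0), with names only (0) or without HDAC1cKO replicate 3 (0; range 0 to 1). Both experiments in 1 fit gave 4 higher and 6 lower, 2 and 1 of them by 2-fold, beside the 642 and 714 over all genes, and *Xist* status as a covariate gave 1 higher by 2-fold; why was not tested. No *Xist* covariate could be fitted at day 3, where all samples held *Xist*. Over genes of at least 1 FPKM, the correlations of same-numbered deviations were -0.02 to 0.06. Such values cannot settle whether samples of the same number were paired. With the replicate block 0 pathway genes were higher after restimulation, and *Igfbp7* had a log2 difference of -0.69 (limma adjusted p = 0.31). The SE of *Igfbp7* there was 0.07 with the block and 0.12 without. The SE also fell for *Irs2* (0.32 to 0.21), *Igf1r* (0.35 to 0.21) and *Igfbp4* (0.4 to 0.27). It rose for *Igf2r* (0.16 to 0.17) and *Insr* (0.22 to 0.24). Using only rows listed by name gave no value for *Igfbp4*, *Igf2r* and *Insr* at day 3 and for any of the 6 genes after restimulation.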
